A study of Mus musculus with 27 samples.

Results

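Genes of sterol and fatty acid synthesis that belong to the sterol regulatory element-binding protein (SREBP) pathway were followed across a TCDD dose series in mouse ileal epithelium. The set held 33 genes, chosen by name for their place in the pathway with earlier results of these data known, of 46078 genes in the count tables. It held 7 enzymes of mevalonate and isoprenoid synthesis, 11 enzymes from squalene to cholesterol, 6 regulators counting the sterol carrier *Stard4*, 5 genes of fatty acid chain synthesis and 4 desaturases. All 33 were counted above the filter on low counts, which 16741 genes passed. RNA-Seq had been run on scrapings of the distal ileum of 27 male C57BL/6 mice that carried no engineered allele in the labels, 3 mice in each of 9 groups. Mice were gavaged with sesame oil (vehicle) or with TCDD (2,3,7,8-tetrachlorodibenzo-*p*-dioxin, a ligand of the aryl hydrocarbon receptor, AhR) in sesame oil at 30, 10, 3, 1, 0.3, 0.1, 0.03 or 0.01 µg/kg, given every 4 days for 28 days, and were taken at postnatal day 56. Per the paper, the mice had been fasted before collection. The question put to the genes was which of them differed from vehicle, and at which dose. Scrapings hold more than enterocytes, and in such bulk samples fewer cells of a type and less RNA per cell cannot be told apart.

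SREBPs are made as membrane proteins of the endoplasmic reticulum. When sterols are scarce, the escort protein SCAP carries them to the Golgi, where they are cut and freed to enter the nucleus, and when sterols are plentiful INSIG proteins hold the SCAP complex back. SREBP2 mainly drives cholesterol synthesis and SREBP1c mainly drives fatty acid synthesis, and both bind sterol response elements together with the factors NF-Y and SP1. The intestine is a major site of cholesterol synthesis outside the liver.

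Each library held 12.26 to 17.14 M counts assigned to genes, with a median of 14.14 M. Levels are given as CPM, counts scaled to a library of 1 M counts, on library sizes scaled by the trimmed mean of M-values. The member with the fewest counts in any mouse was *Me1*, at 49, and the largest count was 14106, for *Scd1*. *Cyp1a1*, the sentinel AhR target, rose with dose from a log2 fold change of 5.23 at 1 µg/kg to 13.74 at 30 µg/kg. The group labels do not name cages. Per the paper, mice of a treatment group shared cages, so cage cannot be told apart from dose. Mice given the same dose are treated as independent, so p-values measure the spread between these mice and not between cages. Library indexes were used more than once, the first time for all mice up to 0.3 µg/kg and the second time for all mice at 3 µg/kg and above, so outside the 1 µg/kg group the use of an index cannot be told apart from the dose. Mouse 1 at 30 µg/kg stood apart from mice 2 and 3 of that dose in its markers of other cell types. Its summed level of 5 crypt and proliferation markers was 468 CPM against 221 and 270 CPM, its adipocyte hormone *Adipoq* was at 10.7 CPM against 0.077 and 0 CPM, and its 6 smooth muscle markers summed to 345 CPM against 78.6 and 36.2 CPM. Vehicle mice had 420.2 to 593 CPM for the crypt markers, so mouse 1 lay within that range and mice 2 and 3 below it. For smooth muscle they had 25.0 to 109.5 CPM, and mouse 1 lay above. The 5 enterocyte markers summed to 5130 CPM in mouse 1 and to 9237 and 6994 CPM in mice 2 and 3. In vehicle that sum was 5839 to 6911 CPM. The main results at 30 µg/kg are therefore also given without mouse 1, which leaves mice 2 and 3, both below vehicle in crypt markers. Mouse 1 was picked from these same libraries. Over all genes, chi-square per degree of freedom was 21.0 between mice 2 and 3. Between mouse 1 and these 2 it was 83.08 and 50.84. Leaving out mouse 1 can thus lower the spread, so p-values without it are a description and not an independent test.

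The promoters of 26 of the 33 genes were matched by symbol to RefSeq starts on GRCm38.p6, and the 250 bases before each start were searched on both strands for 4 motifs. CCAAT, the NF-Y motif, was found in 20 of the 26 genes (76.9%) against 37.5% of 27025 genes. GGGCGG, the SP1 motif, was found in 22 (84.6%) against 35.4%. GCGTG, the core of the dioxin response element (DRE) that AhR binds, was found in 14 (53.8%) against 30.9%. TCACNCCAC, a sterol response element form, was found in 1 gene, *Hmgcs1*, against 1.2% of all genes. A match of letters is a description and not a site. *Fdps*, *Fdft1*, *Sqle*, *Stard4*, *Scd1*, *Scd2* and *Fads1* were not in the promoter table used. The sequences below, from RefSeq on GRCm38.p6, are shown because they are an early sterol enzyme, an enzyme of the later pathway and both INSIG genes, whose levels are described next. Each runs 5′ to 3′ on the gene's strand and ends at the base before the start, and capitals mark the sterol response element, the NF-Y motif and the DRE core, each read on either strand.
Hmgcs1, chr13:119690101-119690350, plus strand: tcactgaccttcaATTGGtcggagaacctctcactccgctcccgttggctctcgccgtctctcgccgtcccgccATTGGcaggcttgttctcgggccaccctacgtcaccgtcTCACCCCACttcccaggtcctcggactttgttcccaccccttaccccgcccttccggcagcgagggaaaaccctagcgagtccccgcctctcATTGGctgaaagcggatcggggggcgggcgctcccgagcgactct
Msmo1, chr8:64733579-64733828, minus strand: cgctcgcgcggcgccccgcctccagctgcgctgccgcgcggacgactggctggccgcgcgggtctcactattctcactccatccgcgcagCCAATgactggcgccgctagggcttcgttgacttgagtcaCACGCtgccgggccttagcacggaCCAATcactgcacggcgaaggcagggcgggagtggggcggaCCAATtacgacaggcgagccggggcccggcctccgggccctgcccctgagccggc
Insig1, chr5:28071162-28071411, plus strand: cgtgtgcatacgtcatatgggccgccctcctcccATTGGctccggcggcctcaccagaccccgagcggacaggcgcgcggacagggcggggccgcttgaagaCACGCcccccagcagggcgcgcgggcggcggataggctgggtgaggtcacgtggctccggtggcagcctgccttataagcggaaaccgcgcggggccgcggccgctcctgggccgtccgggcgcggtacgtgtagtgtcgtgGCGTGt
Insig2, chr1:121332590-121332839, minus strand: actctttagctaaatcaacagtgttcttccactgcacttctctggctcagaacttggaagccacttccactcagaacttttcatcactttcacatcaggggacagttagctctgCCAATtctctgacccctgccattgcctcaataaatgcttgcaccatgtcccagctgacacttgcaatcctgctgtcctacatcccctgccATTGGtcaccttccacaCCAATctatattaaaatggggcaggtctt
Insig2, chr1:121328025-121328274, minus strand: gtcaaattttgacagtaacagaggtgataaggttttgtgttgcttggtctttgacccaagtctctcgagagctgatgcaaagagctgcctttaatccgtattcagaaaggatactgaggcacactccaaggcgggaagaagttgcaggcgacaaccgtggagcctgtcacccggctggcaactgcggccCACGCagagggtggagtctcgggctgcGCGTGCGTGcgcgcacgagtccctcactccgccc
In the *Hmgcs1* window the sterol response element began 137 bases before the start, between CCAAT matches at 176 and 45 bases. *Msmo1* held CCAAT at 160, 96 and 55 bases, and GCGTG at 120 bases. *Insig1* held CCAAT at 216 bases and GCGTG at 148 and 6 bases. *Insig2* has 3 RefSeq starts, and its windows differed. The upstream window held CCAAT at 136, 46 and 29 bases and no GCGTG, while the middle window held GCGTG at 61, 34 and 30 bases and no CCAAT. The window farthest downstream, chr1:121327679-121327928, is not shown and held GCGTG at 141 bases, GGGCGG at 128 bases and no CCAAT. The counts are per gene and do not say which *Insig2* start was used.

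A gene was called where edgeR's quasi-likelihood test across all 9 groups gave a Benjamini-Hochberg adjusted p of at most 0.05 over all 16741 genes and the fold change was at least 1.5. None of the 33 genes was called at 0.01, 0.03, 0.1 or 0.3 µg/kg, where none of the 16741 genes was called either (0.0%). At an unadjusted p under 0.05 those 4 doses gave 1, 1, 1 and 4 members, beside 4.18%, 3.53%, 6.19% and 7.45% of all genes. DESeq2 called 0 members at each. Of 16740 genes it called 3 higher and 0 lower at 0.01 µg/kg and 0 and 0 at 0.03 µg/kg. It called 3 and 2 at 0.1 µg/kg and 4 and 13 at 0.3 µg/kg. At 1 µg/kg 1 member was called, *Stard4*, beside 0.591% of all genes. At 3 µg/kg 0 members were called by edgeR, beside 1.11% of all genes. DESeq2 called 0 there too, beside 155 genes higher and 123 lower of 16740. At 10 µg/kg 1 member was called, *Insig2*, beside 2.53% of all genes. At 30 µg/kg 2 of 33 were called, *Stard4* higher and *Insig2* lower, which is 6.06% of the set beside 9.4% of all genes. The median log2 fold change of the set at 30 µg/kg was 0.14, and that of all genes was 0.02. With no fold minimum, *Srebf2* and *Fads2* passed at 30 µg/kg as well, beside 17.8% of all genes. At an unadjusted p under 0.05 there were 14 members at 30 µg/kg, beside 31.2% of all genes. A test for any difference among the 9 groups passed for 6 of 33 genes (18.2%) beside 9.53% of all genes, namely *Mvk*, *Idi1*, *Lss*, *Srebf2*, *Insig2* and *Stard4*.

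The count at 30 µg/kg turned on mouse 1. Without it, 10 of 33 members were called (30.3%), 5 higher and 5 lower, beside 14.7% of the 17063 genes that then passed the filter. The 5 that were higher were *Fdft1*, *Msmo1*, *Sc5d*, *Insig1* and *Stard4*, and the 5 that were lower were *Insig2*, *Fasn*, *Scd2*, *Fads1* and *Fads2*. Leaving out mouse 2 or mouse 3 in its place gave 1 and 2 members, beside 5.15% and 7.28% of all genes. The test for any difference passed for 15 members (45.5%, beside 17.5% of all genes) without mouse 1, and for 3 without mouse 2 or without mouse 3 (beside 5.61% and 6.16%).

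**Figure D1:**
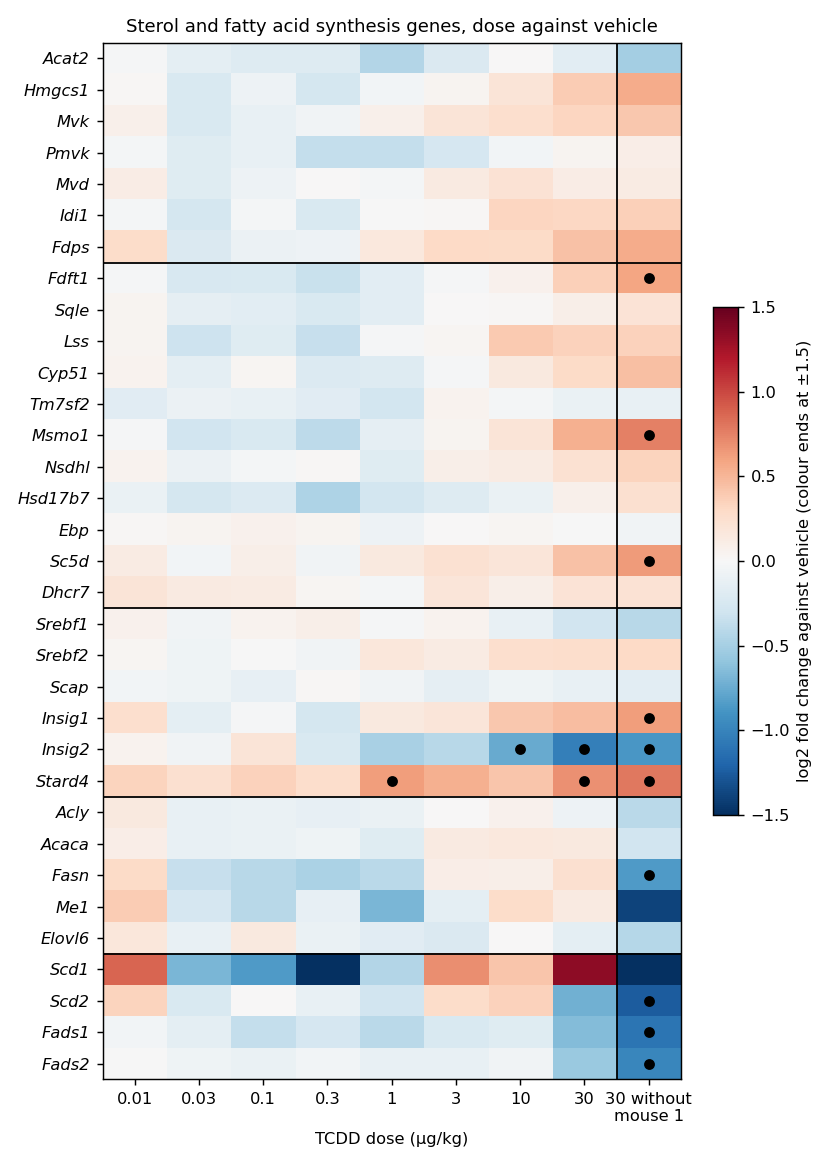
Log2 fold change against vehicle for each of the 33 genes (rows, grouped by role) at each TCDD dose in µg/kg (columns), with black points where a gene was called and the last column fitted without mouse 1 at 30 µg/kg. *Insig2* was called lower at 10 and 30 µg/kg, *Stard4* was called higher at 1 and 30 µg/kg, and the last column holds 10 called genes.

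*Insig2*, one of the 2 INSIG genes whose products retain SCAP, was lower at the 2 highest doses. The gene lies on chr1:121304353-121332589 (GRCm38, minus strand). It was at 104, 97.0 and 129 CPM in the vehicle mice, and at 39.2, 55.9 and 66.5 CPM at 30 µg/kg. At 10 µg/kg it was at 53.9, 73.2 and 68.4 CPM, at 3 µg/kg at 84.4, 87.1 and 76.4 CPM, and at 1 µg/kg at 70.2, 89.0 and 76.0 CPM. Every mouse at 0.3 µg/kg and above was below every vehicle mouse, at 0.3 µg/kg by a narrow margin (96.8, 87.0 and 96.9 CPM, adjusted p = 0.79), and the 3 mice at 30 µg/kg were also all below those at 3 µg/kg. By edgeR *Insig2* was repressed 2.04-fold at 30 µg/kg (log2 fold change -1.03, SE 0.16, adjusted p = 0.00016) and 1.69-fold at 10 µg/kg (log2 fold change -0.76, SE 0.16, adjusted p = 0.0085). The differences at 1 and 3 µg/kg, with log2 fold changes of -0.49 and -0.41, did not pass (adjusted p = 0.16 and 0.23). The difference between 30 and 3 µg/kg was -0.62 on the log2 scale (SE 0.16) and did not pass either (adjusted p = 0.062). Up to 0.1 µg/kg the group means lay between 106 and 126 CPM, around the 110.0 ± 16.6 CPM (SD, n = 3) of vehicle. At 30 µg/kg the call held without mouse 1 (log2 fold change -0.88, adjusted p = 0.00029), without mouse 2 and without mouse 3. At 10 µg/kg it did not hold in 2 of the 6 fits with 1 mouse removed, without vehicle mouse 3 (log2 fold change -0.62, adjusted p = 0.081) and without mouse 1 of the dose (-0.63, adjusted p = 0.060).

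*Insig1*, the other INSIG gene and itself an SREBP target, did not fall. Its levels were 67.4, 64.6 and 73.3 CPM in vehicle and 65.8, 120.3 and 95.9 CPM at 30 µg/kg. Mouse 1 at 30 µg/kg lay within the vehicle range and the other 2 mice lay above it. The log2 fold change was 0.46 (SE 0.19, adjusted p = 0.10) with all mice, and 0.63 (SE 0.18, adjusted p = 0.013) without mouse 1. At 10 µg/kg the levels were 75.7, 75.5 and 121 CPM, all above vehicle, and the difference was not called.

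*Srebf2*, which encodes SREBP2, was at 298, 297 and 285 CPM in vehicle and at 321, 353 and 385 CPM at 30 µg/kg. The groups did not overlap, and the difference was small (log2 fold change 0.27, SE 0.09). It passed on its adjusted p (0.043) and not on the fold minimum. Leaving out mouse 1 kept the adjusted p under the limit (0.019), and leaving out any other mouse of the 2 groups did not (0.10 to 0.20). *Srebf1*, which encodes SREBP1, ran the other way, from 51.7, 57.0 and 53.0 CPM in vehicle to 50.0, 39.4 and 43.2 CPM at 30 µg/kg. Again the groups did not overlap, with a log2 fold change of -0.29 (SE 0.11, adjusted p = 0.083), or -0.42 (SE 0.12, adjusted p = 0.012) without mouse 1. *Scap*, the escort, was among the least variable genes of the set, with 48.0 to 63.8 CPM over the 27 mice. Its log2 fold change at 30 µg/kg was -0.11 (SE 0.08). Its 2 groups did not overlap either, by a narrow margin. They were at 57.51, 62.5 and 61.11 CPM in vehicle and at 57.01, 56.31 and 54.38 CPM at 30 µg/kg. Beside these, all 3 mice at 30 µg/kg lay above vehicle for 13.7% of all genes and below it for 13.3%, and for 4 and 3 of the 33 members.

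*Stard4*, which encodes a soluble protein that moves cholesterol between membranes and is an SREBP2 target, was the member called at the lowest dose. It was at 252, 298 and 253 CPM in vehicle, at 464, 359 and 422 CPM at 1 µg/kg, at 400.0, 381 and 378 CPM at 3 µg/kg, at 374, 293 and 405 CPM at 10 µg/kg and at 347, 498 and 451 CPM at 30 µg/kg. One mouse at 0.3 µg/kg and one at 10 µg/kg fell within the vehicle range. In the other 6 groups, the 3 lowest doses among them, every mouse was above vehicle. By edgeR it was induced 1.55-fold at 1 µg/kg (log2 0.63, SE 0.12, adjusted p = 0.016) and 1.61-fold at 30 µg/kg (log2 0.69, SE 0.12, adjusted p = 0.00058). The call at 1 µg/kg did not hold in 4 of the 6 fits with 1 mouse of either group removed, those without vehicle mouse 1 (adjusted p = 0.11) or 3 (0.13) and without mouse 1 (0.080) or 3 (0.058) of the dose. At 30 µg/kg the difference was 0.79 on the log2 scale (adjusted p = 3.9e-05) without mouse 1, and without mouse 2 it was 0.57, under the fold minimum (adjusted p = 0.0081). In the 1 µg/kg group the mouse from the first use of the indexes had 464 CPM. A fit with the index use as a covariate put the difference at 0.79 on the log2 scale. Index use varied within this dose only, so that value in effect sets this mouse against vehicle. At 3 µg/kg *Stard4* passed on its adjusted p (0.028) with a fold of 1.44, and at 10 µg/kg it passed on neither (1.33-fold, adjusted p = 0.064). Between doses the differences were within the spread, at 0.16 (SE 0.12) for 30 against 3 µg/kg and -0.11 (SE 0.12) for 10 against 3 µg/kg on the log2 scale. From 0.01 to 0.3 µg/kg its group means were 315 to 341 CPM, against 268 ± 26.3 CPM (SD, n = 3) in vehicle, and none of these differences passed (adjusted p of 0.65 or more).

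**Figure D2:**
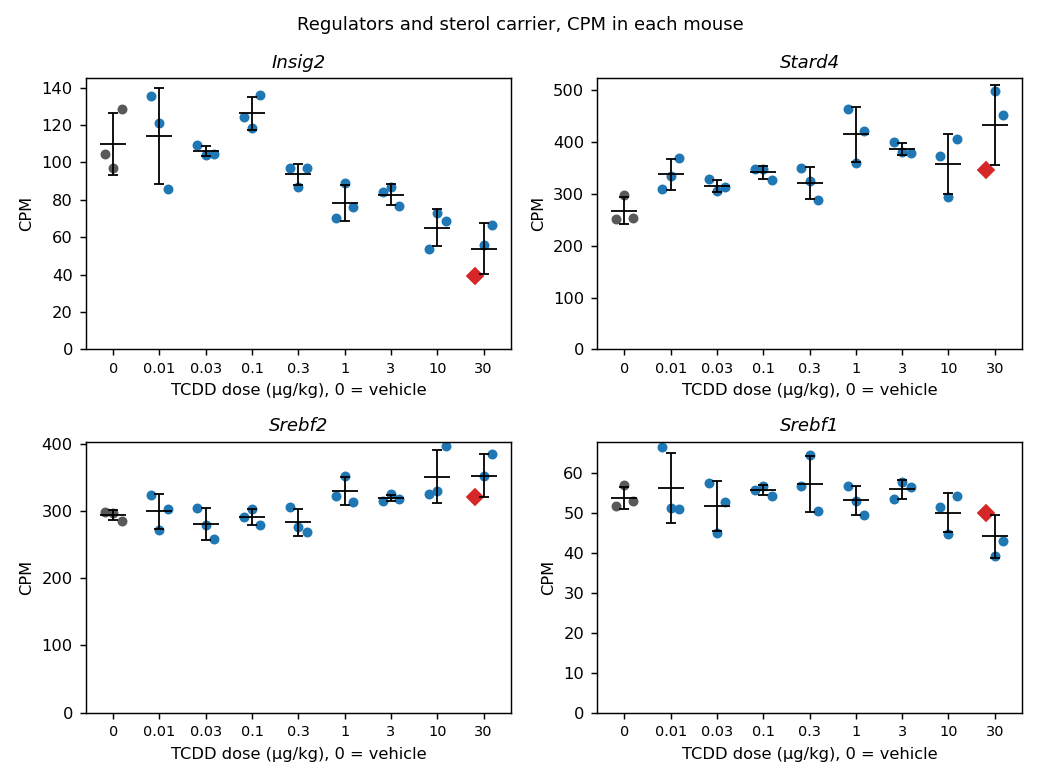
CPM of *Insig2*, *Stard4*, *Srebf2* and *Srebf1* in each mouse by TCDD dose in µg/kg, with vehicle at 0; points are mice, black bars are the mean ± SD of 3 mice, and the red diamond is mouse 1 at 30 µg/kg. The *Insig2* mean fell from 110.0 CPM in vehicle to 53.9 CPM at 30 µg/kg, while the *Stard4* mean rose from 268 to 432 CPM.

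The circadian clock genes moved with dose in the same samples. Of 12 clock genes, 8 were called higher and 3 lower at 30 µg/kg. A clock score was the mean centred log2 level of *Arntl*, *Clock* and *Npas2* minus that of *Per1*, *Per2*, *Per3*, *Nr1d1*, *Nr1d2*, *Dbp* and *Tef*. It ran from 2.23 to 2.57 in vehicle and from -2.84 to -2.41 at 30 µg/kg. With that score as a covariate the *Insig2* difference at 30 µg/kg was -0.17 (SE 0.27, adjusted p = 0.84) and the *Stard4* difference was 0.33 (SE 0.25, adjusted p = 0.66). Score and dose moved together almost without overlap, so the 2 cannot be told apart. One mouse at a low dose had a clock score outside its group, mouse 3 at 0.01 µg/kg, at -1.56 against 2.40 and 2.01. That mouse had 85.9 CPM of *Insig2* against 136 and 121 CPM in its group, and 369 CPM of *Stard4* against 310.3 and 334 CPM. It was below every vehicle mouse for *Insig2*. For *Stard4* it was above every vehicle mouse, but so was every other mouse at 0.01, 0.03 and 0.1 µg/kg.

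The 18 enzymes of cholesterol synthesis, 7 up to farnesyl diphosphate and 11 from squalene on, gave 0 calls by edgeR at any dose. At 30 µg/kg, 15 of the 18 had a positive log2 fold change, with a median of 0.26 and a range from -0.16 (*Acat2*, SE 0.20) to 0.53 (*Msmo1*), where 51.8% of all genes were positive. Without mouse 1 the count was again 15 of 18, the median was 0.34 and 3 were called higher (16.7%, beside 14.7% of all genes called). At 10 µg/kg 15 of the 18 were positive as well (median 0.13, where 49.6% of all genes were positive). The count was 13 at 3 µg/kg (median 0.033, 49.6%) and 11 at 0.01 µg/kg (median 0.033, 52.0%). From 0.03 to 1 µg/kg most of these enzymes were negative. They were 16 of 18 at 0.03 µg/kg (median -0.18, where 49.4% of all genes were positive), 14 at 0.1 µg/kg (median -0.098, 50.9%), 14 at 0.3 µg/kg (median -0.20, 52.3%) and 15 at 1 µg/kg (median -0.11, 50.6%). All 3 mice were below vehicle for 4, 4, 8 and 3 of the 18 at those doses, beside 5.55%, 6.68%, 8.49% and 10.2% of all genes. The 8 at 0.3 µg/kg were *Acat2*, *Pmvk*, *Idi1*, *Sqle*, *Lss*, *Cyp51*, *Msmo1* and *Hsd17b7*, and none passed (adjusted p of 0.47 or more). All of these doses share the same 3 vehicle mice.

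*Hmgcs1*, which makes the HMG-CoA that feeds the mevalonate pathway, was at 525, 410.1 and 477 CPM in vehicle and at 419.6, 732 and 685 CPM at 30 µg/kg. Mouse 1 lay within the vehicle range and mice 2 and 3 lay above it. The log2 fold change was 0.38 (SE 0.18, adjusted p = 0.16) with all mice, and 0.56 (SE 0.17, adjusted p = 0.018) without mouse 1, a fold just under the minimum. *Msmo1*, a sterol C4-methyl oxidase, was at 187, 138 and 161 CPM in vehicle and at 141, 294 and 264 CPM at 30 µg/kg. Its order of mice was the same, with a log2 fold change of 0.53 (SE 0.21, adjusted p = 0.086), or 0.76 (SE 0.19, adjusted p = 0.0039) without mouse 1. *Sc5d*, the C5-desaturase, was at 85.4, 91.3 and 84.4 CPM in vehicle and at 76.5, 146 and 131 CPM at 30 µg/kg, where mouse 1 was below and mice 2 and 3 above every vehicle mouse. Its log2 fold change was 0.44 (SE 0.16, adjusted p = 0.061), or 0.64 (SE 0.12, adjusted p = 0.00057) without mouse 1. *Fdft1*, squalene synthase, was at 98.1, 83.8 and 94.3 CPM in vehicle and at 71.1, 136 and 147 CPM at 30 µg/kg, and its log2 fold change went from 0.36 (SE 0.21, adjusted p = 0.26) to 0.59 (SE 0.19, adjusted p = 0.021) without mouse 1. *Idi1*, the isopentenyl diphosphate isomerase, and *Lss*, lanosterol synthase, did not depend on that mouse in this way. *Idi1* was at 96.4, 82.5 and 94.3 CPM in vehicle and at 101, 124 and 115 CPM at 30 µg/kg, and *Lss* at 55.3, 53.2 and 48.0 CPM and at 63.2, 71.4 and 63.7 CPM. Neither overlapped vehicle, with log2 fold changes of 0.31 (SE 0.13, adjusted p = 0.10) and 0.34 (SE 0.15, adjusted p = 0.11), and both were also all above the 3 µg/kg mice. Without mouse 1 the values were 0.36 (adjusted p = 0.065) and 0.34 (adjusted p = 0.13). At the other end *Ebp*, the sterol isomerase, was the steadiest gene of the set, with 31.2 to 40.7 CPM over 27 mice and a log2 fold change of -0.01 (SE 0.08) at 30 µg/kg.

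**Figure D3:**
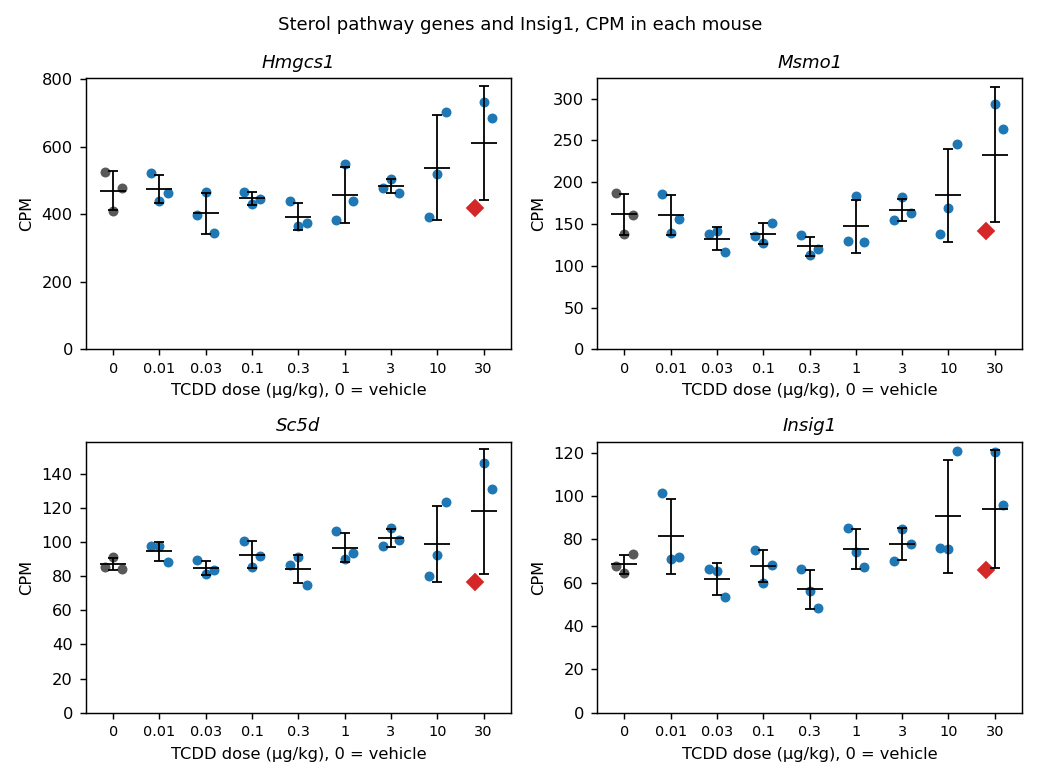
CPM of *Hmgcs1*, *Msmo1*, *Sc5d* and *Insig1* in each mouse by TCDD dose in µg/kg, with vehicle at 0; points are mice, black bars are the mean ± SD of 3 mice, and the red diamond is mouse 1 at 30 µg/kg. In each panel that mouse lies below 2 mice of its dose that stand above all vehicle mice, such as 141 CPM against 294 and 264 CPM for *Msmo1*.

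In 4 of the 5 fatty acid chain genes the level in a mouse went with markers of fat cells. None of the 5 was called at any dose with all mice in the fit. *Fasn*, fatty acid synthase, was at 207, 161 and 313 CPM in vehicle and at 546, 117 and 140 CPM at 30 µg/kg. Mouse 1 at 30 µg/kg held the highest level of all 27 mice and mice 2 and 3 lay below every vehicle mouse. The log2 fold change was 0.24 (SE 0.40) with all mice and -0.85 (SE 0.30, adjusted p = 0.037) without mouse 1. *Me1*, malic enzyme, which supplies NADPH, was at 12.7, 8.14 and 25.3 CPM in vehicle and at 38.6, 7.97 and 3.99 CPM at 30 µg/kg, where mouse 1 was again far above mice 2 and 3. Its log2 fold change without mouse 1 was -1.39 (SE 0.52, adjusted p = 0.051). *Acly* (ATP citrate lyase) and *Acaca* (acetyl-CoA carboxylase) had log2 fold changes of -0.07 (SE 0.15) and 0.14 (SE 0.19), and *Elovl6*, an elongase, of -0.14 (SE 0.19). Without mouse 1 the *Acly* value was -0.40 (SE 0.12, adjusted p = 0.016), under the fold minimum, *Acaca* turned to -0.29 (SE 0.15, adjusted p = 0.17) and *Elovl6* was at -0.43 (SE 0.19, adjusted p = 0.11).

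An adipocyte marker score (the mean centred log2 level of *Adipoq*, *Plin1*, *Cidec*, *Cfd*, *Lep* and *Retn*) was fitted as a covariate beside the 9 groups, a test added after the levels in each mouse had been seen. Its slope passed for 5 of 33 members (15.2%) beside 0.514% of all genes, and the 5 were *Scd1*, *Me1*, *Fasn*, *Acaca* and *Acly*. Per unit of score *Scd1* rose by 0.98 on the log2 scale (SE 0.07, adjusted p = 1.1e-09), *Me1* by 0.37, *Fasn* by 0.33, *Acaca* by 0.15 and *Acly* by 0.11. Within the 9 groups, the mouse with the highest score also held the highest level of *Fasn* in 9 and of *Scd1* in 8. The same held in 7 for *Acaca* and in 6 each for *Me1* and *Acly*. It held in 6 each for *Srebf1* and *Scap* as well, whose slopes did not pass, and in 1 for *Hmgcs1*. The score was highest in mouse 1 at 30 µg/kg (2.56), followed by mouse 3 at 3 µg/kg (2.37), mouse 1 at 0.01 µg/kg (2.08), mouse 1 at 10 µg/kg (1.81) and mouse 3 of vehicle (1.77). The 6 markers summed to 12.7 to 33.8 CPM in vehicle and to 21.9 to 58.5 CPM at 30 µg/kg, and only *Cidec* among them was called at 30 µg/kg. *Cidec* carried most of that sum in mice 2 and 3 at 30 µg/kg, at 33.6 and 21.7 CPM, and the other 5 markers summed to 40.04, 1.01 and 0.16 CPM in the mice of that dose against 3.31, 0.51 and 18.3 CPM in vehicle. *Adipoq* was at 0 CPM in 4 of the 27 mice, mouse 3 at 30 µg/kg among them. The source of the marker RNA was not tested.

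**Figure D4:**
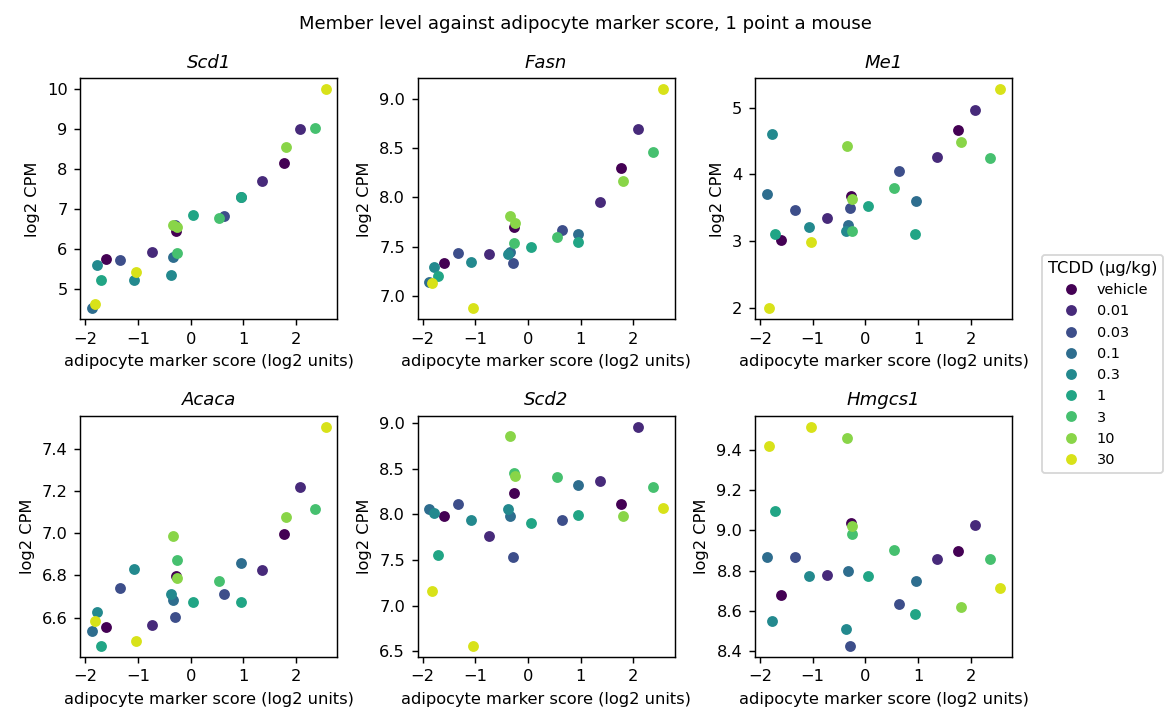
Log2 CPM of *Scd1*, *Fasn*, *Me1*, *Acaca*, *Scd2* and *Hmgcs1* (vertical axes) against the adipocyte marker score in log2 units (horizontal axes), with 1 point a mouse coloured by TCDD dose in µg/kg. *Scd1* climbs along the score by 0.98 per unit, *Fasn* by 0.33 and *Acaca* by 0.15, and the mouse at the right end is mouse 1 at 30 µg/kg, with a score of 2.56.

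*Scd1*, which encodes the main stearoyl-CoA desaturase of lipogenic tissues, ranged 44.1-fold over the 27 mice, the widest range of the set, from 22.9 to 1010 CPM. It was at 87.2, 54.2 and 282 CPM in vehicle and at 1010, 43.1 and 24.6 CPM at 30 µg/kg. The groups overlapped, and the log2 fold change of 1.35 had an SE of 1.04 (adjusted p = 0.41). Without mouse 1 the sign turned, to -2.09 (SE 0.99, adjusted p = 0.13). *Scd2*, its paralog, lies beside it on chromosome 19 (*Scd2* at chr19:44293674-44306864 and *Scd1* at chr19:44394455-44407879). It was at 300.3, 254 and 278 CPM in vehicle and at 268, 94.2 and 143 CPM at 30 µg/kg, where mouse 1 lay within the vehicle range and mice 2 and 3 held the lowest levels of all 27 mice. The log2 fold change was -0.72 (SE 0.28, adjusted p = 0.079), or -1.25 (SE 0.26, adjusted p = 0.0011) without mouse 1. Against 3 µg/kg, whose mice were at 339, 351 and 316 CPM, every mouse at 30 µg/kg was lower, and the log2 fold change of -0.99 (SE 0.28) did not pass (adjusted p = 0.082).

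*Fads2*, the delta-6 desaturase of polyunsaturated fatty acids, was at 57.5, 59.1 and 58.0 CPM in vehicle and at 58.1, 26.8 and 33.5 CPM at 30 µg/kg. It stayed between 45.1 and 62.3 CPM in every mouse except mice 2 and 3 at 30 µg/kg, which lay below that range. Its log2 fold change of -0.56 (SE 0.17) passed on its adjusted p (0.026) and not on the fold minimum, and without mouse 1 it was -0.98 (SE 0.13, adjusted p = 7.7e-06). Without mouse 2 or mouse 3 it was -0.34 or -0.45 and did not pass (adjusted p = 0.19 and 0.12). *Fads1*, the delta-5 desaturase, is its neighbour on chromosome 19 (*Fads2* at chr19:10062765-10101746 and *Fads1* at chr19:10182888-10196877). It was at 14.9, 9.17 and 20.6 CPM in vehicle and at 14.1, 7.19 and 7.00 CPM at 30 µg/kg. Its groups overlapped with all mice in the fit (log2 fold change -0.65, SE 0.28, adjusted p = 0.11), and without mouse 1 the value was -1.10 (SE 0.29, adjusted p = 0.0069). With the adipocyte score as a covariate and all mice kept, *Scd2*, *Fads1* and *Fads2* were called lower at 30 µg/kg, with log2 fold changes of -0.78, -0.66 and -0.59 (adjusted p = 0.034, 0.0485 and 0.0077), and 5 members in all were called beside 9.62% of all genes.

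**Figure D5:**
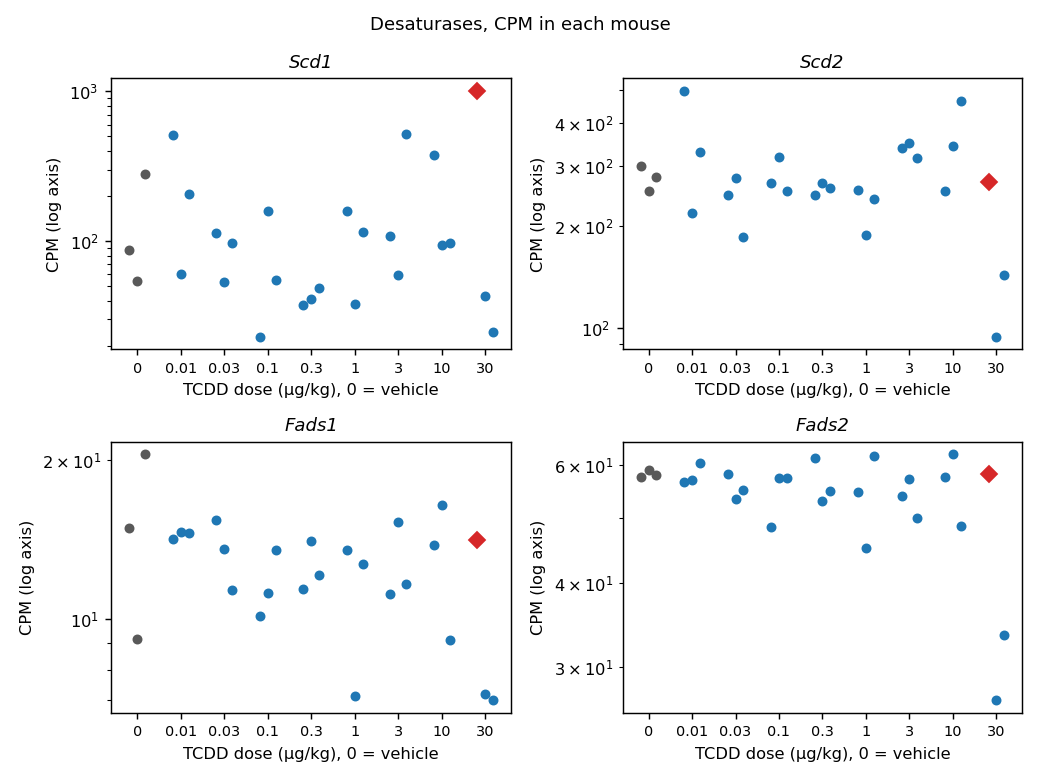
CPM of *Scd1*, *Scd2*, *Fads1* and *Fads2* on log axes in each mouse by TCDD dose in µg/kg, with vehicle at 0; points are mice and the red diamond is mouse 1 at 30 µg/kg. That mouse is the highest of all for *Scd1* (1010 CPM) and lies among the vehicle mice for *Scd2*, *Fads1* and *Fads2*, while the other 2 mice at 30 µg/kg are at 26.8 and 33.5 CPM for *Fads2*.

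The crypt marker score differed along the same mice. At 30 µg/kg 3 of its 5 genes were called lower, the stem cell gene *Lgr5* and the proliferation genes *Top2a* and *Pcna*, and the 5 summed to 420.2 to 593 CPM in vehicle. Its slope passed for 5 of 33 members (15.2%) beside 14.4% of all genes, with *Fads1* (0.96 per unit on the log2 scale), *Fads2* (0.56) and *Acly* (0.39) positive and *Fdps* (-0.58) and *Mvk* (-0.30) negative. With the crypt score as a covariate *Insig2* and *Stard4* were the 2 members called at 30 µg/kg (6.06%, beside 4.95% of all genes). Their log2 fold changes were -1.27 and 0.60. *Scd2*, *Fads1* and *Fads2* were not called, and *Fads1* had a value of 0.22. The median of the 33 members at 30 µg/kg was 0.0080 with that covariate and 0.14 without it. The smooth muscle marker score had a slope that passed for 1 member, *Fads1*, beside 2.08% of all genes. The part of these markers in the differences at 30 µg/kg was not tested further.

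Per kilobase of exon, *Hmgcs1* was the most abundant member in the vehicle ileum, at 102 CPM per kilobase. *Scd2* (50.7), *Stard4* (48.0), *Srebf2* (40.8) and *Cyp51* (37.2 CPM per kilobase) followed, and *Fads1* was last at 3.09 CPM per kilobase. *Scd2* thus stood above *Scd1*, at 28.9 CPM per kilobase, and *Srebf2* above *Srebf1*, at 9.57 CPM per kilobase.

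Outside the set, 36 further genes of the pathway were counted, and 4 were called higher and 1 lower at 30 µg/kg, which is 13.9% beside 9.4% of all genes. Without mouse 1 there were 7 (19.4% beside 14.7%), the same 5 and *Elovl5* and *Lpin1*, both lower. *Erlin1*, whose product takes part in the turnover of endoplasmic reticulum proteins, was at 81.9, 93.6 and 79.0 CPM in vehicle and at 97.3, 147 and 142 CPM at 30 µg/kg (log2 fold change 0.60, SE 0.14, adjusted p = 0.0054). *Rnf145*, an endoplasmic reticulum ubiquitin ligase, went from 84.0, 96.8 and 101 CPM to 73.3, 45.2 and 47.6 CPM (log2 fold change -0.76, SE 0.15, adjusted p = 0.0016). *Mylip*, an LXR target that directs lipoprotein receptors to degradation, was at 19.1, 18.7 and 16.0 CPM and at 17.4, 59.6 and 37.6 CPM, so mouse 1 again stayed within the vehicle range (log2 fold change 1.09, SE 0.25, adjusted p = 0.0036). Without mouse 1 the log2 fold changes of these 3 were 0.73, -1.05 and 1.41. *Acacb*, the second acetyl-CoA carboxylase, and *Mlxipl*, the carbohydrate-responsive factor ChREBP, were called higher with log2 fold changes of 1.03 (SE 0.31) and 0.69 (SE 0.14). The 30 µg/kg group was also set against 3 µg/kg, where all 6 libraries came from the second use of the indexes. None of the 33 members was called by edgeR there, beside 0.89% of all genes. DESeq2 called *Insig2* and *Scd2* lower, beside 154 genes higher and 95 lower of 16740.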

How the data were processed

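Members and gene lists were chosen with earlier results of these data known. The authors deposited raw counts per Ensembl gene for each mouse. Per the labels, reads were checked with FastQC 0.11.3, trimmed with Trimmomatic 0.33 and mapped to GRCm38 with TopHat2 2.1.0, with SAMtools 1.2.0 and HTSeq 0.6.1 also listed. Counting options, and so the handling of strand and of reads shared by paralogs such as *Scd1* and *Scd2*, are not given in the sources used here. Rows that name no gene stayed out of library sizes, and the no-feature row held 44.5 to 49.5% of reads. Symbols came from GENCODE M21.

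Counts were tested with edgeR 4.0.16 in R 4.3.3 (filterByExpr with a minimum count of 10, TMM, quasi-likelihood fit of 9 groups, no covariate), and DESeq2 1.42.0 was an alternative. Members called in a comparison, and the key regulators, are given in every mouse. The other members are given by value, range or count. SEs are the log2 fold change over the root of F. The steps were tested on simulated data. Alternatives were other scalings, filters, covariates and leaving out each mouse. Mice of a group were compared by chi-square, and 0 of 27 pairs were within sampling noise.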

Additional observations from a re-analysis of the deposited data

How the results depend on the processing

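The calls of *Insig2* and *Stard4* at 30 µg/kg passed under upper-quartile scaling, both other filters, DESeq2, the 2-group fit and the index, crypt, muscle and adipocyte covariates, and *Stard4* fell under the fold minimum with library size alone (0.54). That scaling moved the median of all genes at 30 µg/kg from 0.02 to -0.11. With the clock covariate no member was called at any dose. Of all 16741 genes it called 12 higher and 2 lower at 30 µg/kg, 4 at 10 µg/kg and 0 at each lower dose. With that covariate *Insig2* had log2 fold changes of 0.13 at 1, 0.34 at 3 and 0.045 at 10 µg/kg, and *Stard4* 0.37 at 1 µg/kg. The index covariate was set by the 3 mice of the 1 µg/kg group alone, so its calls at other doses cannot separate index use from dose. It called 0 members at 10 µg/kg (*Insig2* -0.99), beside 33 genes higher and 15 lower of 16741. In the test for any difference 0 members passed with it (beside 0.633% of all genes) or with the clock covariate (44 of 16741 genes). The crypt covariate left 1 (beside 3.54%). Members called at 30 µg/kg numbered 4 with no fold minimum (beside 17.8% of all genes) and 4 with no filter (beside 804 genes higher and 779 lower of 30714). They numbered 6 with the muscle (beside 11.5%) and 5 with the adipocyte covariate (9.62%), and 1 to 10 when a mouse was left out (5.15% to 14.7%). With no fold minimum 1 was called at 3 µg/kg (beside 1.7%). Leaving out a mouse gave 0 to 1 calls at 1, 3 and 10 µg/kg. Beside these, all genes gave from 9 higher and 3 lower (of 17075) to 70 and 37 (of 17096) at 1 µg/kg. At 3 µg/kg they gave from 53 and 14 (of 17067) to 128 and 97 (of 17096). At 10 µg/kg they gave from 152 and 56 (of 17096) to 320 and 130 (of 17055). In the test for any difference, leaving out a mouse gave 3 to 15 members (beside 5.61% to 17.5%). For 30 against 3 µg/kg, 1 member was called with upper-quartile scaling (beside 111 genes higher and 45 lower of 16741) or library size alone (77 and 60). The muscle (1.19%) and the adipocyte covariate (0.818%) also gave 1. No filter (143 and 114 of 30714) and DESeq2 (154 and 95 of 16740) gave 2, and leaving out a mouse gave 0 to 4 (0.275% to 4.07%).

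At 30 µg/kg some members changed sign, none of which was called with all mice and no covariate. The crypt covariate gave *Fdps* -0.13, *Fdft1* -0.0072, *Acly* 0.26 and *Fads1* 0.22 (0.12 against 3 µg/kg). The index covariate gave *Acly* 0.059 and *Me1* -0.081, the muscle covariate *Fasn* -0.014, *Me1* -0.16 and *Scd1* -0.022, and the adipocyte covariate *Me1* -0.13. Leaving out a mouse gave *Acaca* -0.29 to 0.32, *Acly* -0.40 to 0.081, *Fasn* -0.85 to 0.59, *Me1* -1.39 to 0.70 and *Scd1* -2.09 to 2.34. The cause was not tested. The clock and adipocyte scores are made from these libraries, and 3 mice a group limit the precision. No paired analysis was possible because the replicate numbers 1 to 3 only follow the order of the mice within a group, and the labels tie no mouse of a group to one of another.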
